A study of Mus musculus with 6 samples.

Results

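Cyclic AMP (cAMP) signalling links the melanocortin 1 receptor to pigment formation in melanocytes. The receptor activates the stimulatory G protein, adenylyl cyclases then make cAMP, and phosphodiesterases break it down again. Cyclic AMP frees the catalytic subunits of protein kinase A (PKA) from its regulatory subunits, and PKA phosphorylates factors of the CREB family. In a separate branch, cAMP opens the exchange factors of the EPAC family, which activate the small GTPases RAP1 and RAP2. The 10 genes described here cover these steps: Mc1r, Gnas, Pde4b, Pde4d, Prkaca, Prkar1a, Rapgef3, Rapgef4, Creb1 and Crem. They are 10 of the 27179 genes in the deposited table and were taken from it by their symbols.

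The RNA came from B16F10 cells, an established mouse melanoma line of wild-type genotype. Of the 6 libraries, 3 were from cells given 0.01% ozonated olive oil (OZO) and 3 from cells given 0.01% olive oil (OLO), each for 6 h. The gene group was chosen on the treatment values of Mc1r and Rapgef3 in the authors' own comparison of OZO with OLO. Those fold changes and p-values are the authors' findings and are not used here. What is described is the average level of each gene over all 6 libraries, as the authors deposited it, so each value mixes both treatments and says nothing about a difference between them. The spread between libraries is not part of an average, and the levels are therefore given as a description, with no test. No treatment effect on any of the 10 genes was analysed here.

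Levels are stated in CPM, the reads of a gene scaled to the size of its library. They are geometric means, because the authors averaged on the log2 scale. The geometric mean of the library sizes was 19641946 reads, recovered from the 6025 genes without any read, so that 1 CPM stood for 19.6 reads per library. Reads per library given below are geometric means and include the 0.5 reads that the authors' method adds to each count. Levels of different genes are compared only per kilobase (kb) of transcript, and the length used is that of the longest annotated transcript unless all exons are named. Counting error alone lay between 0.341% for Gnas and 3.03% for Rapgef3, taken over the reads of the 6 libraries. The spread between libraries comes on top of it and is not known here.

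All 8 melanocyte markers examined were at or above 1 CPM. Tyrp1 averaged 5832 CPM, Dct 7052 CPM and Pmel 3066 CPM. These genes encode enzymes and the fibril protein of the melanosome, and they define the pigment cells from which melanoma arises. Of 12 markers of other cell types, 5 reached 1 CPM. Per kb the highest of them was Lyz2, a leukocyte marker, at 1.36 CPM per kb, followed by the fibroblast marker Pdgfra at 0.480 CPM per kb. Krt5, a keratinocyte marker, had no read in any library.

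All 10 genes were expressed at or above 1 CPM, as were 76 of the 102 genes in the lists of the cAMP pathway and 43.7% of all genes in the table. Their levels covered a wide range. Per kb of the longest transcript, Gnas was 83.9 times as high as Rapgef3, the lowest of the 10. Per kb of all exons the ends of the range were Prkar1a and Pde4b, with a ratio of 112. Going down from Gnas, the order per kb of the longest transcript was Prkar1a, Prkaca, Creb1, Mc1r, Rapgef4, Crem, Pde4d, Pde4b and Rapgef3. All 10 lay above the median of genes with reads, 1.87 CPM per kb, and 7 lay above the median of genes at or above 1 CPM, 9.92 CPM per kb. The 3 genes under that stricter median were Pde4d, Pde4b and Rapgef3. With all exons, 8 of the 10 lay above the median of genes with reads, 1.47 CPM per kb, and Pde4b (1.16) lay under it. Rapgef3 (1.46) was not among the 8, but its gap to the median was smaller than its counting error of 3.03%, so its side of the median is not resolved. Per kb of all exons, the order of 3 neighbouring pairs turned: Prkar1a then stood above Gnas, Mc1r above Creb1 and Rapgef3 above Pde4b. Whether other neighbours in the order differ beyond the spread between libraries was not tested.

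**Figure D1:**
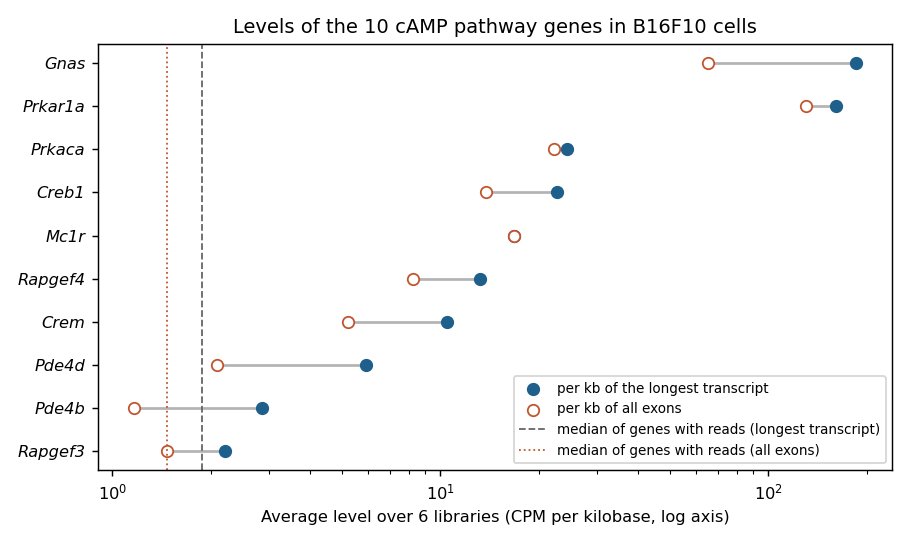
Average level of each of the 10 genes in CPM per kilobase on a log axis, over all 6 libraries, per kilobase of the longest transcript (filled) and of all exons (open). The vertical lines are the medians of genes with reads under the same 2 lengths (dashed, 1.87, and dotted, 1.47). Gnas and Prkar1a stand far to the right of the other genes, and Rapgef3 and Pde4b lie near the medians. No error bars are drawn because no values of single libraries were used.

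Mc1r, the receptor for alpha-melanocyte-stimulating hormone, averaged 61.0 CPM, which corresponds to 1197 reads per library. It lies on chromosome 8 of GRCm38 from 123407107 to 123410744 on the plus strand and has 1 annotated transcript. The unnamed gene model Gm38092 overlaps its exons on the opposite strand. With 16.8 CPM per kb it stood above 79.2% of the genes with reads. The other melanocortin receptors were close to absent. Mc5r had 1.91 reads per library, and Mc2r, Mc3r and Mc4r had under 1. Of the summed level of the 5 melanocortin receptors per kb, 99.6% was that of Mc1r. Neither the hormone precursor Pomc, at 0.805 CPM, nor the receptor antagonist Asip, at 0.0367 CPM, reached 1 CPM.

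The genes that tune the receptor varied. The accessory proteins Mrap and Mrap2 stood at 0.0619 and 0.137 CPM. Atrn, which encodes the attractin protein of agouti signalling, averaged 146 CPM, and Mgrn1, a ubiquitin ligase known to act on melanocortin receptors, averaged 66.1 CPM. Grk2, a kinase that desensitises receptors, stood at 22.3 CPM per kb, whereas Grk3 stood at 0.0490 CPM per kb. Among other receptors that couple to the stimulatory G protein, Adora2a stood at 0.253 CPM, Adora2b at 0.112 CPM, Ptger4 at 0.117 CPM and Adrb1 at 0.0367 CPM, and Ptger2 had no read. In all, 6 of the 21 genes on the receptor side were at or above 1 CPM. Mc1r was the only G protein-coupled receptor among them.

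The upstream region of Mc1r is shown because Mc1r held nearly all of the melanocortin receptor RNA and the gene group was chosen in part on it. It is the 250 bases before the RefSeq start on GRCm38.p6, chr8:123406832-123407081, plus strand. Capitals mark the letters CATGTG on either strand, a form of the E-box that MITF is known to bind. This 6-base motif is found in 12.3% of 32851 mouse promoter windows of the same length.

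Mc1r: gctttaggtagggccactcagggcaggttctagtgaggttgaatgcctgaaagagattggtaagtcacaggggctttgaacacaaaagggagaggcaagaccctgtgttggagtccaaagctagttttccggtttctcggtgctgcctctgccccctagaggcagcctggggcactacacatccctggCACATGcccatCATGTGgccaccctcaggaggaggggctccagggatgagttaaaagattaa

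The window holds the motif 2 times, once on each strand. Of the 21 windows searched for 9 of the 10 genes, 4 held it, 1 each of Mc1r, Pde4d, Prkar1a and Gnas. The genes have unequal numbers of windows, so the share of all windows is no background for a count of genes. Of the 18458 genes in the table with a promoter window, 2163 held the motif in at least 1 window. Mitf itself, the pigment cell factor, averaged 288 CPM. A match of letters is a description and does not show that the factor is bound there.

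Gnas, which encodes the stimulatory G protein alpha subunit, averaged 731 CPM, or 14364 reads per library. Per kb of the longest transcript it was the highest of the 10 genes, at 185 CPM per kb, and per kb of all exons it came second to Prkar1a, at 65.4 against 130 CPM per kb. It lies on chromosome 2, and 24 transcripts are annotated for it, among them those of other imprinted products of the locus, so the value sums them. Nespas and the gene model Gm20721 overlap its exons on the opposite strand. Per kb, the inhibitory subunit gene Gnai2 was at 0.690 times the level of Gnas, but at 1.15 times when all exons set the length. Gnal, the alpha subunit best known from the olfactory system, averaged 3.85 CPM. The beta subunit gene Gnb1 averaged 525 CPM. Per kb of all exons, Gnb1 (123) and Gnai3 (76.3) also stood above Gnas.

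No gene of the 10 encodes an adenylyl cyclase, the step between Gnas and cAMP. Of the 10 adenylyl cyclase genes, 7 were at or above 1 CPM. The highest per kb were Adcy7 with 36.0% of the family's summed level, Adcy6 with 25.3% and Adcy3 with 20.2%. Adcy7 averaged 42.1 CPM, and Adcy4 and Adcy8 had 0.866 and 2.26 reads per library.

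Pde4d and Pde4b encode cAMP-specific phosphodiesterases of the PDE4 family, the targets of rolipram. Pde4d averaged 25.0 CPM (491 reads per library) and Pde4b 12.3 CPM (241 reads per library). Per kb, Pde4d was 2.08 times as high as Pde4b, and 1.79 times with all exons. Pde4d held 59.2% of the summed level of the 4 PDE4 genes, Pde4b 28.5% and Pde4a 10.8%. Pde4c, at 0.493 CPM, held 1.43%. With all exons the shares were 52.1% for Pde4d, 29.1% for Pde4b, 16.5% for Pde4a and 2.21% for Pde4c. Both genes are long and have many annotated transcripts, 20 for Pde4d and 13 for Pde4b, and the short and long PDE4 forms cannot be told apart in a value per gene.

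The PDE4 genes were not the highest of their class. Of 16 genes for phosphodiesterases that hydrolyse cAMP, 11 were at or above 1 CPM. Pde7a, another cAMP-specific enzyme, averaged 73.7 CPM and held 32.3% of the summed level per kb. Pde11a, which accepts both cAMP and cGMP, averaged 31.5 CPM and held 20.8%. Pde4d followed with 16.4% and Pde4b held 7.89%. With all exons Pde7a held 40.3%, Pde11a 25.6%, Pde4d 8.82% and Pde4b 4.93%. Pde3a and Pde3b stood at 0.0986 and 0.247 CPM.

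Prkar1a, the type I alpha regulatory subunit of PKA, averaged 563 CPM (11052 reads per library) and 160 CPM per kb, above 98.6% of the genes with reads. Prkaca, the alpha catalytic subunit, averaged 55.3 CPM (1087 reads per library) and 24.3 CPM per kb. Prkar1a alone held 80.2% of the summed level of the 4 regulatory subunit genes, against 11.8% for Prkar2b, 7.41% for Prkar2a and 0.572% for Prkar1b. The 4 regulatory genes together were at 3.85 times the summed level of the catalytic genes Prkaca and Prkacb per kb, and at 4.58 times with all exons. This is a ratio of RNA and not of protein. Which catalytic gene was higher depended on the length used. Prkaca was at 0.883 times the level of Prkacb per kb of the longest transcript and at 1.63 times per kb of all exons. The PKA inhibitor gene Pkia averaged 64.7 CPM, and 9 of the 10 genes for A-kinase anchoring proteins were at or above 1 CPM. Per kb of the longest transcript Akap8 was the highest of these 10, followed by Akap10 and Akap1. Per kb of all exons Akap8 stood at 18.7 and Akap1 at 18.5 CPM per kb. That gap was smaller than the counting error of Akap1, 1.02%, so their order is not resolved.

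An upstream region of Prkar1a is shown because it was the only window searched with a full cAMP response element, the CREB site TGACGTCA. RefSeq gives 6 start sites for the gene, and this window is the 250 bases before the fifth, on GRCm38.p6, chr11:109650699-109650948, plus strand. Capitals mark the full site and its core TGACG on either strand. The full site contains the core on both strands.

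Prkar1a: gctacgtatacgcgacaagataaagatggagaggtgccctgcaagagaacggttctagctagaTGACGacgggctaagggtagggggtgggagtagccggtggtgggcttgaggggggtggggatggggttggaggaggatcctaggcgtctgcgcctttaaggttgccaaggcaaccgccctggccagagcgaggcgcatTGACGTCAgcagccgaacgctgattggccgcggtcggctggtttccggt

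The full site is in 1.55% of the 32851 promoter windows and the core in 17.8%. Promoter windows of 9 of the 10 genes were searched, 21 windows in all, and 9 windows of 5 genes held the core. Of the 18458 genes in the table with a promoter window, 4181 held the core in at least 1 window. The share of all windows is no background for the count of 5 genes, because genes have unequal numbers of windows. Some windows of Prkar1a and Gnas overlap and share their matches. The window of Rapgef3 held 1 core and no full site. All 250 bases of that window lie in annotated UTRs, as do those of the fourth Gnas window, which also held the core. Both are counted among the 9 windows. Of the 410 genes in the table with a full site, 73.9% were at or above 1 CPM, against 50.8% of the 18458 genes with a promoter window. The share was 70.8% for genes with the core and 38.4% for genes with CATGTG, the motif shown for Mc1r. A gene was counted for a motif if any of its windows held it, so genes with more windows had more chances. These shares are descriptions across genes, and no test was made.

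Rapgef3 and Rapgef4 encode EPAC1 and EPAC2, exchange factors that cAMP switches on without PKA. Rapgef4 averaged 55.1 CPM (1082 reads per library) and Rapgef3 9.28 CPM (182 reads per library). Per kb, Rapgef4 was 5.97 times as high as Rapgef3, and 5.64 times with all exons, so EPAC2 held 85.7% of the EPAC transcript level. Rapgef3 lies on chromosome 15, where the antisense genes Rapgef3os1 and Rapgef3os2 overlap it, and Rapgef4 lies on chromosome 2 with the antisense gene Rapgef4os2 over its exons. Whether strand was used in counting is not given in the sources used here, so reads of these antisense neighbours, and of those named above for other genes, cannot be told apart from reads of the genes themselves. The RAP genes, whose products EPAC activates, were all at or above 1 CPM. Rap1a stood at 38.8 CPM per kb, Rap2a at 23.1, Rap2c at 21.6, Rap2b at 15.9 and Rap1b at 13.7. The order was the same with all exons. Rap1gap, which switches RAP1 off, averaged 8.22 CPM.

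Creb1 and Crem encode transcription factors that bind cAMP response elements. Creb1 averaged 190 CPM (3724 reads per library) and Crem 30.8 CPM (604.5 reads per library). Per kb, Creb1 was 2.16 times as high as Crem, and 2.64 times with all exons. Their relative Atf1 was higher than both, with 55.5% of the summed level of the 3 genes, against 30.4% for Creb1 and 14.1% for Crem. With all exons these shares were 62.7%, 27.1% and 10.3%. Crem has 39 annotated transcripts, which encode activators as well as the repressor ICER, and the value per gene sums them. The gene model Gm6225 overlaps its exons on the opposite strand.

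All 11 genes of the CREB factors and their cofactors were at or above 1 CPM. The acetyltransferase genes Ep300 and Crebbp averaged 278 and 71.9 CPM. Among the coactivators that salt-inducible kinases hold back, Crtc2 averaged 39.4 CPM, Crtc3 26.1 CPM and Crtc1 16.4 CPM. The 8 genes listed as known to respond to cAMP were also all at or above 1 CPM. After Mitf, the highest per kb were Ppargc1a at 63.9 CPM and Dusp1 at 17.7 CPM. Nr4a1 averaged 15.9 CPM and Fos 6.74 CPM.

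**Figure D2:**
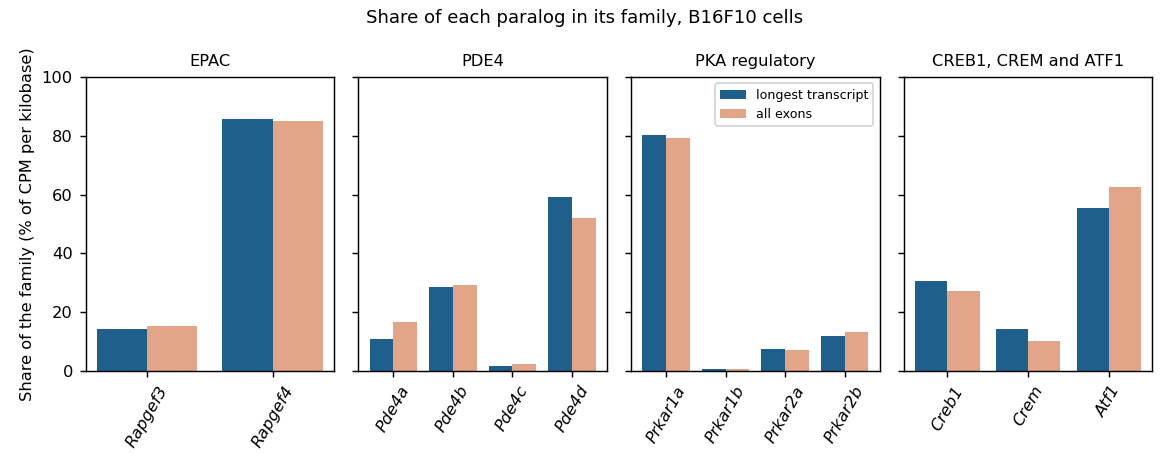
Share of each gene in the summed level of its family, in percent of CPM per kilobase, with the longest transcript (blue bars) or all exons (orange bars) as the length. Rapgef4, Pde4d, Prkar1a and Atf1 held the highest share of their families under both lengths.

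**Figure D3:**
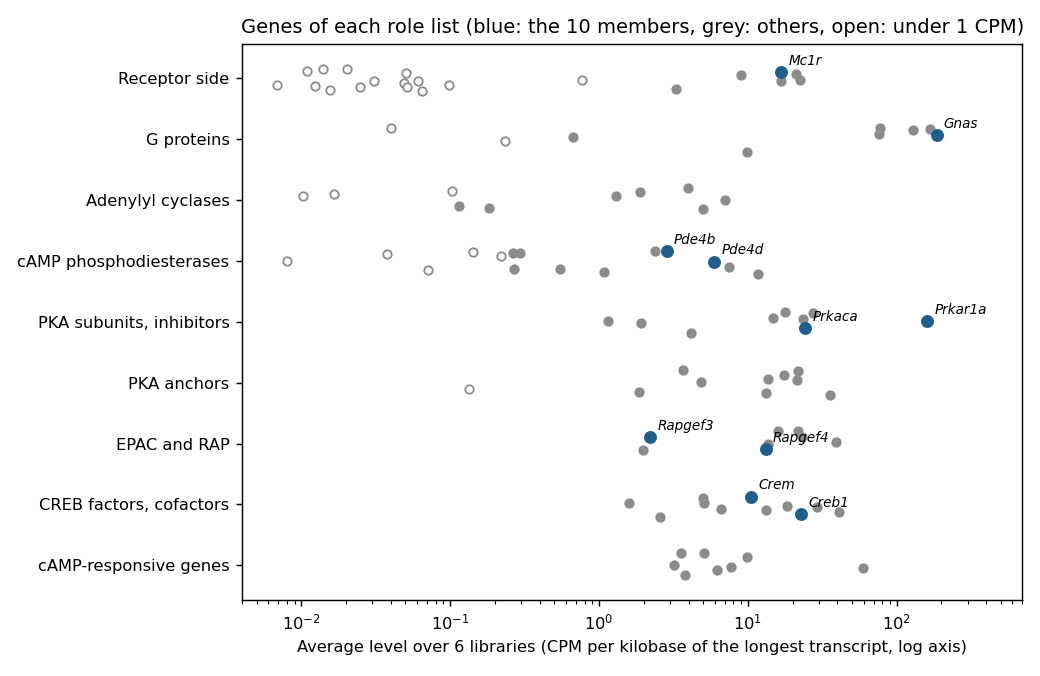
Average level of every gene of the 9 role lists, in CPM per kilobase of the longest transcript on a log axis, with the 10 genes in blue and labelled, and open circles for genes under 1 CPM. A gene without reads (Ptger2) is drawn at the value that 0.5 reads give. In the receptor list, 15 of 21 genes are open circles, and Gnas and Prkar1a lie at the top of their lists under this length.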

How the data were processed

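Per the labels, RNA of 6 B16F10 libraries was sequenced after directional library preparation. According to the methods, the authors aligned reads to mm10 with HISAT2 (version 2.1.0), counted them with featureCounts (2.1.1) and ran limma-voom (3.58.1). They added StringTie estimates, which are not used here. The deposited table holds 1 row per gene with the average log2 CPM over all libraries, which limma-voom forms after adding 0.5 to each count. The other 5 columns of values (log2 fold change, moderated statistic, p-value, adjusted p-value and log odds) are the authors' own comparison and were not used. The strand setting and annotation of the counting are not given in the sources used here.

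Library size was recovered from genes without reads. Among 2146 genes with few reads, 100% of the averages matched whole reads (tolerance 1e-06 on the log2 scale). The calculation was also run on simulated counts averaged with the same formula. That run checks the arithmetic only and cannot show how the authors' averages were formed. Lengths and positions came from GENCODE M21 on GRCm38, which held 23906 of 24126 Ensembl identifiers. Promoters came from RefSeq (GRCm38.p6), those of Crem were not used here, and only windows with at most 30 bases in annotated UTRs were printed. Windows with more UTR bases were searched and counted as well. Asip was read from the row with the symbol a. Named were the 10 genes, their paralogs, the highest 3 genes per kb of each role list and genes without reads. Other genes were named after their values were seen. The members and lists were chosen with earlier results of these data known. Alternatives were minima of 0.5 and 5 CPM, subtraction of the 0.5 reads, all exons as the length and a stricter median. Python 3.11.15, pandas 2.3.3 and numpy 2.4.6 were used.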

Additional observations from a re-analysis of the deposited data

How the results depend on the processing

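No paired analysis was possible because each level is 1 average of the 6 libraries. Leaving out each replicate, another normalization and another pseudocount could therefore not be run either, and the depth of single libraries is unknown. All 10 genes were at or above 0.5, 1 and 5 CPM, also with the 0.5 reads subtracted. Of the 102 pathway genes, 76 were at or above 1 CPM, and 75 with the 0.5 reads subtracted. With other minima, 81 were at or above 0.5 CPM and 68 at or above 5 CPM. Per kb of all exons, 8 of the 10 genes were above the median of genes with reads in place of 10. The exceptions were Pde4b, at 1.16 CPM per kb, and Rapgef3, which at 1.46 CPM per kb lay under the median of 1.47 by less than its counting error. Against the median of genes at or above 1 CPM, 7 were above.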
